A study of Mus musculus with 12 samples.

Results

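The endoplasmic reticulum (ER) chaperones and protein disulfide isomerases were described here in MLE-12 cells through 10 genes of the 34745 in the deposited table: Hspa5, Hsp90b1, Calr, Canx, Pdia3, Pdia4, Pdia6, P4hb, Txndc5 and Xbp1. The genes were taken by name, and they were chosen from earlier results of these same values, so their levels and differences are given as a description. No p-value of these genes is printed, and counts of them past a p threshold are set beside the share of all genes. All 10 passed the filter on low counts in every comparison.

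RNA-seq was run on 12 libraries of MLE-12, a transformed mouse line used as a model of the alveolar type II (AT II) cell, in 4 groups of 3 taken at 24 h. The LPS group received 100 ng/mL lipopolysaccharide (LPS) in 21% oxygen, and the LPS + M2-Exo group also received exosomes (M2-Exo) from IL-4-treated MH-S alveolar macrophages at 10 µg/mL. The hyperoxia group (Hyp) was kept in 85% oxygen without LPS, and the Hyp + M2-Exo group received the same dose of M2-Exo. All 4 groups carried an injury, none of the 12 libraries came from untreated cells, and the exosomes of a line grown in culture stand in for those of lung macrophages. Nothing states that the 3 libraries of a group came from separate cultures, so every error given covers the spread between these libraries, which may be technical.

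Total counts ran from 16021833 to 19185116 in the 6 LPS-treated libraries and from 20231632 to 24074616 in the 6 hyperoxic ones. Of the epithelial and AT II markers, Krt8 stood at 74.2 to 86.5 FPKM and Sftpc at 13.5 to 28.2 FPKM, while Sftpb stayed at or under 1.87 FPKM, Epcam at or under 21 counts and Krt18 at or under 4 counts in any library. The summed FPKM of 12 macrophage markers, led by Lyz2 and Cd68, was 160 to 182 in the LPS libraries and 129 to 144 with M2-Exo after LPS. It was 43.8 to 47.7 in the Hyp libraries and 34.4 to 51.0 with M2-Exo in hyperoxia. Lyz2 stood at 15.1 to 85.5 FPKM and Cd68 at 7.2 to 18.7 FPKM. Ptprc of the same list stood at 0.238 to 1.94 FPKM, with up to 997 counts in a library. Whether the sum reflects a content of macrophages was not tested. The summed FPKM of 6 fibroblast markers, led by Dcn and Col1a1, was 367 to 374 after LPS and 345 to 354 with M2-Exo. In hyperoxia it was 159 to 173 without M2-Exo and 168 to 172 with it. A mean of at least 1 FPKM over the libraries was reached by 2 of these 6 and by 7 of the 12 macrophage markers. It was reached by 5 of the 10 AT II and 3 of the 5 epithelial markers that follow. The 10 AT II markers summed to 102 to 108 FPKM in the LPS-treated libraries and 48.2 to 53.7 FPKM in the hyperoxic ones, while the 5 epithelial markers, led by Krt19, went the other way, at 290 to 320 FPKM against 372 to 425 FPKM. These sums move with the differences between LPS and hyperoxia given here, and the macrophage and fibroblast sums, lower with M2-Exo after LPS without overlap, also move with the M2-Exo differences after LPS. Their part in those differences was not tested.

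Proteins that enter the secretory pathway fold in the ER lumen with the help of chaperones, and disulfide isomerases form and rearrange the bonds between their cysteines. When unfolded proteins accumulate, the sensors IRE1, PERK and ATF6 start the unfolded protein response, which raises transcription of many chaperone genes. AT II cells secrete surfactant proteins and therefore depend on this machinery.

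One known route of that response is the ER stress element, the letters CCAAT, then 9 bases, then CCACG, to which ATF6 binds together with NF-Y. RefSeq promoters (GRCm38.p6, 250 bases before to 50 bases after each gene's start) were matched for all 10 genes and searched on both strands. A match was present in 5 of the 10 genes, that is in 5 of their 12 promoters (41.7%), and in 0.119% of the 32851 promoters searched. The 10 genes were chosen as ER chaperones and isomerases, the kind of gene this response is known to raise. Their share is therefore a description and not an independent feature. The matches are shown with both end parts of the element in capitals, each read on the strand of its gene.
Hspa5 (chr2:34772025-34772043, plus strand): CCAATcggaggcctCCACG
Hsp90b1 (chr10:86705638-86705656, minus strand): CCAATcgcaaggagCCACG
Hsp90b1 (chr10:86705533-86705551, minus strand): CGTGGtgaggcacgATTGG
Calr (chr8:84847075-84847093, minus strand): CGTGGtcgaccctcATTGG
Canx (chr11:50325800-50325818, minus strand): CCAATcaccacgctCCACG
Pdia6 (chr12:17266491-17266509, plus strand): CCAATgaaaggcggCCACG

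The second Hsp90b1 match and the Calr match lie in reverse orientation. The matches begin between 65 and 212 bases before the gene's start, closest in Hspa5. The 250 bases before the start of Hspa5 (chr2:34771840-34772089, plus strand) are given whole, since Hspa5 is the classical target of this element, with both end parts of the match in capitals.
Hspa5: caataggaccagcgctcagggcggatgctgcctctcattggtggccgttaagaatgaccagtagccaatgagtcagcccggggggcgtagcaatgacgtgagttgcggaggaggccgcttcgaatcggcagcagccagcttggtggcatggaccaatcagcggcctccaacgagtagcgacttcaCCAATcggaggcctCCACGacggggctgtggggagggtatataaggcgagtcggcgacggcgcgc

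No match was found in the windows of Pdia3, Pdia4, P4hb and Xbp1 or in the 3 listed for Txndc5, which says only that these letters are not in those windows. Of 110 other ER folding genes with a listed promoter, Creld2, Derl3, Dnajc3, Ero1b and Syvn1 held a match, in 4.0% of their 125 promoters.

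P4hb, the founding disulfide isomerase and also a subunit of collagen prolyl 4-hydroxylase, had the highest level per length in every group. Its mean over all 12 libraries was 316.6 FPKM (fragments scaled by gene length and library total), and it was followed by Calr at 223.9, Pdia3 at 133.7, Hsp90b1 at 115.8, Hspa5 at 89.1, Canx at 85.8, Pdia4 at 76.9, Pdia6 at 41.6, Txndc5 at 41.3 and Xbp1 at 5.12 FPKM. P4hb and Calr took ranks 1 and 2 in all 4 groups with no overlap between them, and Xbp1, a transcription factor and not a folding protein, was last. Below them the order changed with the group. Hsp90b1 took rank 3 after LPS, at 140.3 FPKM, and rank 6 in hyperoxia, at 89.4 FPKM, where its range met those of Canx and Hspa5. Txndc5 took rank 9 in the LPS, Hyp and Hyp + M2-Exo groups and rank 8 in the LPS + M2-Exo group, and its range met that of its neighbour Pdia6 in the LPS and Hyp + M2-Exo groups.

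**Figure D1:**
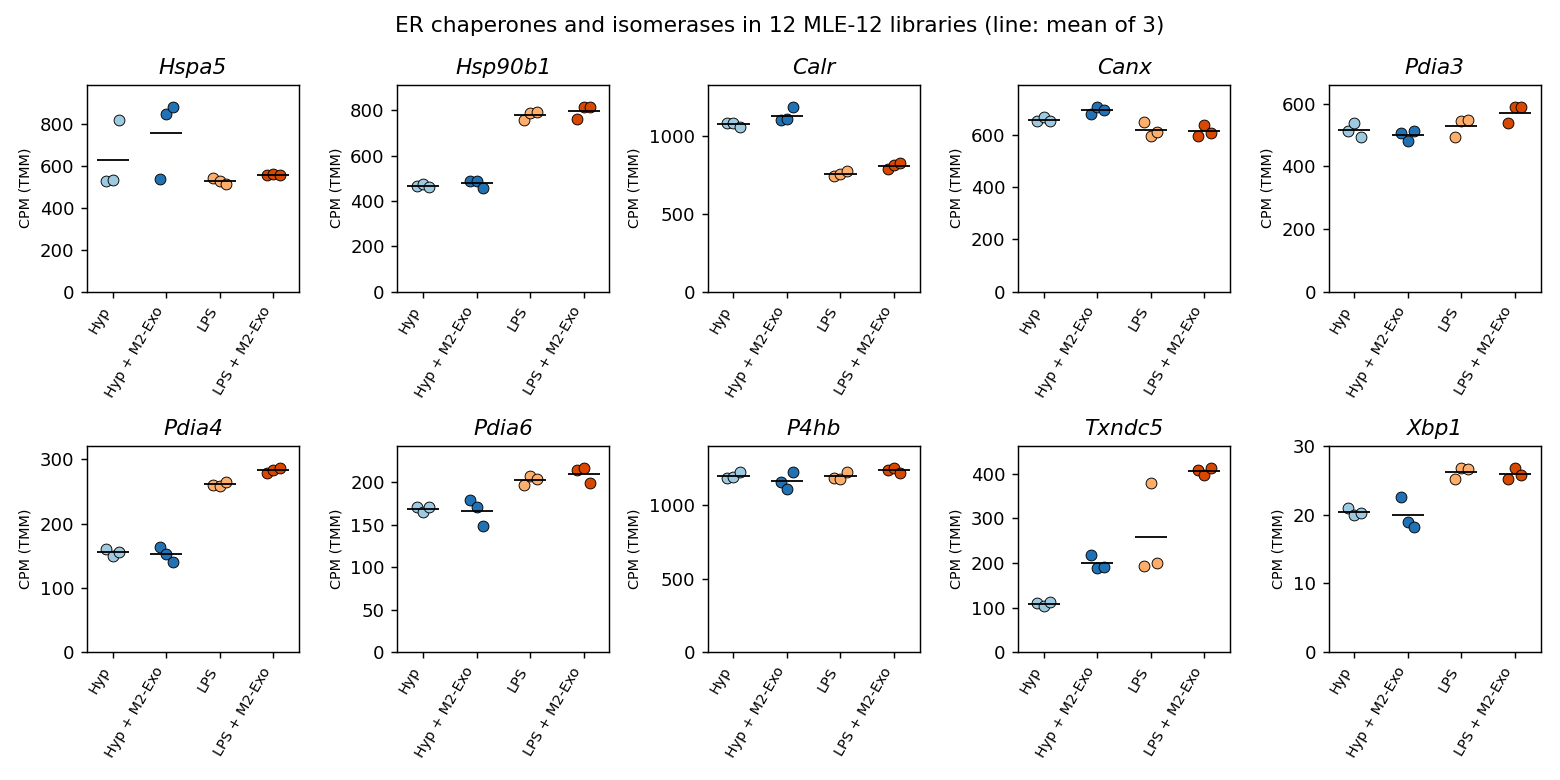
Levels of the 10 genes in CPM (scaled by TMM, y axis), 1 panel a gene, with the 4 groups on the x axis, a point for each library and a line at the mean of 3. Txndc5 separates into levels near 108 CPM (Hyp), near 199 CPM (Hyp + M2-Exo) and near 406 CPM (LPS + M2-Exo), with LPS libraries at 2 of these levels, while Hspa5 is split within both hyperoxic groups.

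Txndc5 (ERp46, a disulfide isomerase that introduces disulfide bonds quickly) had the largest fitted difference of the 10 genes with M2-Exo in both injuries. Its values in CPM (counts divided by the library total scaled by the TMM method, used here to compare libraries within a gene) were 109.3, 104.3 and 111.8 under hyperoxia alone, and 216.9, 189.2 and 191.5 once M2-Exo had been added. All 3 Hyp + M2-Exo libraries lay above all 3 Hyp libraries. The fitted difference was 0.87 on the log2 scale (SE 0.06), a 1.83-fold higher level with M2-Exo. In these bulk libraries a change in the number of expressing cells and a change in RNA per cell cannot be told apart.

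After LPS the Txndc5 values were 193.5, 379.1 and 199.3 CPM, and with M2-Exo they were 408.8, 397.1 and 413.1 CPM. LPS replicate 2 stood apart from the other 2 LPS libraries and close to the LPS + M2-Exo libraries, although the groups still did not overlap. The fitted log2 difference was 0.66 (SE 0.24), or 1.58-fold, and it was 1.05 (SE 0.04) without LPS replicate 2.

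Between the injuries, Txndc5 was higher after LPS than in hyperoxia by 1.25 on the log2 scale (SE 0.24) without M2-Exo and by 1.03 (SE 0.06) with it. Without LPS replicate 2 the first of these differences was 0.86. The other 2 LPS libraries, at 1.78 and 1.84 times the Hyp mean, fell among the Hyp + M2-Exo libraries, at 1.74 to 2.00 times, while the LPS + M2-Exo libraries stood at 3.66 to 3.81 times and LPS replicate 2 at 3.50 times. The M2-Exo effect after LPS minus that in hyperoxia was -0.22 (SE 0.28) on the log2 scale, and 0.17 without LPS replicate 2, so its sign rested on that library.

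Read against the 8 other chaperones and isomerases (Xbp1 left out), Txndc5 differed with M2-Exo by about as much as it did alone. Within a library, the family was summarised by the geometric mean of its FPKM, whose log2 value lay between 6.74 and 6.88 in all 12 libraries. Under hyperoxia alone Txndc5 was 18.2%, 17.3% and 17.7% of that mean, and with M2-Exo it was 35.4%, 29.7% and 30.2%. After LPS it was 29.4%, 57.0% and 29.7%, and 60%, 56.1% and 59.3% once M2-Exo was added. Relative to the family, the log2 difference with M2-Exo was 0.84 in hyperoxia and 0.67 after LPS, against 0.87 and 0.66 for the gene alone. The measures are unlike, since the first 2 values are differences of mean log2 FPKM and the others are edgeR fits on TMM-scaled counts. The mean log2 FPKM of the family was 6.76 in Hyp and 6.79 with M2-Exo, and 6.80 in LPS and 6.85 with M2-Exo. Between LPS and Hyp, relative to the family, the log2 difference was 1.05 without M2-Exo and 0.88 with it.

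**Figure D2:**
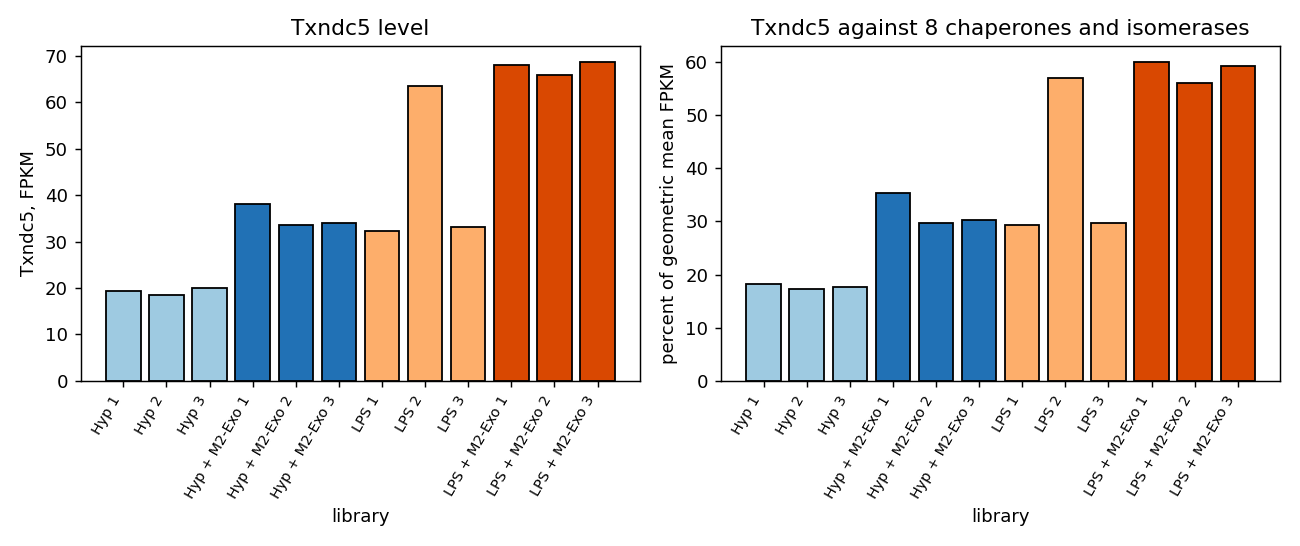
Txndc5 in each of the 12 libraries (x axis), at left in FPKM and at right as a percent of the geometric mean FPKM of 8 chaperones and isomerases. The bars of LPS replicate 2 (63.5 FPKM, 57.0%) stand with those of the LPS + M2-Exo group, and the Hyp bars are the lowest in both panels.

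Txndc5 lies at chr13:38500273-38528824 on the minus strand (GRCm38) and overlaps no other gene of the table. The length implied by its FPKM and counts was 5813 bases in every library. The 5 genes most like it in log2 CPM over the 12 libraries were Tmod2 (Pearson r = 0.92), Arcn1, Rpl9-ps6, Kdm2a and Vamp4 (r = 0.90). After each group's mean was subtracted they were Slc35a2 (r = 0.96), Klhdc10, Pou6f1, Micall1 and Fcho2 (r = 0.94). The 12 libraries share 4 treatments, and LPS replicate 2 is the library farthest from its group mean in Txndc5. None of the 10 genes named is a member of the family, and the likeness is a description.

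Among the 10 genes, 1 passed an adjusted p of 0.05 between Hyp + M2-Exo and Hyp (edgeR's quasi-likelihood test, adjusted over all genes), where 0.101% of all genes did, and it was Txndc5. Between LPS + M2-Exo and LPS 0 of 10 passed, where 0.187% of all genes did, and 4 were at an unadjusted p under 0.05, where 11.1% of all genes were. DESeq2, another count test, called 1 and 0 of the 10 in these comparisons (0.268% and 1.18% of all genes), and limma on log2 FPKM called 1 and 0 (0.101% and 0.228%). With all 12 libraries in 1 edgeR fit the call of Txndc5 in hyperoxia was lost, and 0 of 10 were called. When the effects of M2-Exo in the 2 injuries were set against each other, 0 of 10 were called by edgeR, DESeq2 or limma (0.0352%, 0.696% and 0.0362% of all genes), with 0 of 10 at an unadjusted p under 0.05 (9.78%). In hyperoxia 1 of 10 had an unadjusted p under 0.05, where 8.48% of all genes did. The genes were chosen with these contrasts known, so nothing is read from their counts.

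**Figure D3:**
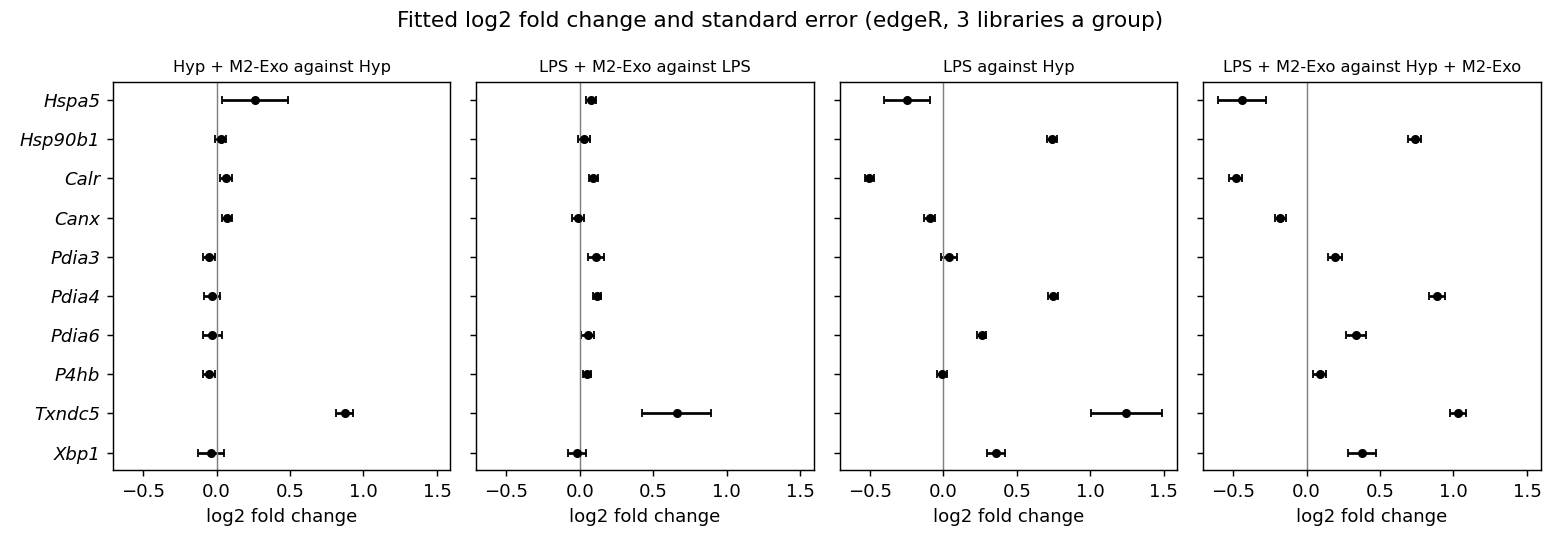
Log2 fold change of each gene (points) with its standard error (bars) from edgeR in the 4 comparisons, with a grey line at 0. In the M2-Exo comparisons Txndc5 stands at 0.87 and 0.66 and the other 9 genes between -0.05 and 0.26, whereas in the LPS against Hyp comparisons the genes spread from -0.50 to 1.25.

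Hspa5 (BiP), the ER Hsp70 that binds unfolded chains and holds the sensors of the unfolded protein response inactive, split into levels that did not follow the groups. Under hyperoxia alone it was 527.5, 531.8 and 821.1 CPM, and with M2-Exo it was 536.2, 849.2 and 881.8 CPM. In the LPS libraries it was 545.1, 529.9 and 512.1 CPM, and with M2-Exo 554.7, 559.6 and 559.0 CPM. Thus 3 hyperoxic libraries (Hyp replicate 3 and Hyp + M2-Exo replicates 2 and 3) lay at 821 to 882 CPM and the other 9 libraries at 512 to 560 CPM, with none between. The fitted log2 difference with M2-Exo in hyperoxia was 0.26 (SE 0.22), and the groups overlapped. Between LPS and Hyp it was -0.25 (SE 0.16) without M2-Exo and -0.44 (SE 0.16) with it, and the groups overlapped in both. Without Hyp replicate 3 the M2-Exo difference in hyperoxia was 0.51 and the LPS against Hyp difference -0.0084. Leaving out other single hyperoxic libraries took the M2-Exo difference to between 0.14 and 0.46.

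Steps of this kind were counted over the table. Of 5360 genes with a mean of at least 50 CPM, 274 (5.11%) had a library at least 1.5 times another of the same group. Of the 9 members at that level, Txndc5 (1.96 times within LPS) and Hspa5 (1.56 and 1.64 times within Hyp and Hyp + M2-Exo) did, and the other 7 did not. Of 91 other ER folding genes 5 did, and they are named with their values seen: Tmx2, Ube2g2, Spcs1, Srprb and Ppp1r15a. Tmx2, a membrane-bound relative of the isomerases, was at 94.5, 98.4 and 49.0 CPM in the Hyp libraries. Ube2g2, a ubiquitin-conjugating enzyme of ER-associated degradation, was at 60.2, 28.5 and 59.6 CPM in the LPS libraries. The cause of these steps was not tested, and from counts per gene a step in the RNA and one made in the quantification cannot be told apart, for Txndc5 and Hspa5 as for the others.

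Hsp90b1 (GRP94), the ER member of the Hsp90 family, was higher after LPS. Its values were 757.7, 790.3 and 792.6 CPM in the LPS libraries and 468.0, 473.6 and 459.6 CPM in the Hyp libraries. With M2-Exo they were 759.6, 813.9 and 814.3 CPM after LPS and 487.1, 489.5 and 457.7 CPM in hyperoxia. All 6 LPS-treated libraries lay above all 6 hyperoxic ones. The log2 difference was 0.74 (SE 0.03) without M2-Exo and 0.74 (SE 0.04) with it, whereas M2-Exo itself left 0.03 (SE 0.04) in both injuries.

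The lectin chaperones calreticulin (Calr, in the lumen) and calnexin (Canx, in the membrane) hold glycoproteins during folding. Calr went the other way to Hsp90b1. It was 747.9, 758.4 and 777.1 CPM in the LPS libraries and 1088, 1086 and 1063 CPM in the Hyp libraries, with no overlap. The log2 difference was -0.50 (SE 0.03), and with M2-Exo, where the groups stood at 811.7 ± 19.5 and 1134 ± 48.0 CPM (SD, n = 3 each), it was -0.48 (SE 0.04). Canx differed far less, from 619.1 ± 28.9 CPM after LPS to 659.3 ± 7.55 CPM in hyperoxia (SD, n = 3 each). Its log2 difference was -0.09 (SE 0.04), and -0.18 (SE 0.04) with M2-Exo. By total count alone these were -0.18 and -0.27, and the first, not called in edgeR, was called by limma on FPKM and without LPS replicate 1. Against the Hyp group, M2-Exo left Calr at 0.07 (SE 0.04) and Canx at 0.07 (SE 0.03), and after LPS it left them at 0.09 (SE 0.03) and -0.01 (SE 0.04), all on the log2 scale.

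The isomerases did not move together. Pdia4 (ERp72), an isomerase with several thioredoxin-like domains, was 259.6, 258.1 and 265.4 CPM in the LPS libraries and 159.9, 150.3 and 156.0 CPM in the Hyp libraries. With M2-Exo it was 278.2, 283.4 and 286.9 CPM after LPS and 164.5, 153.3 and 140.5 CPM in hyperoxia. No LPS-treated library overlapped a hyperoxic one, and the log2 differences were 0.75 (SE 0.03) and 0.89 (SE 0.06). With M2-Exo after LPS, Pdia4 was higher by 0.12 (SE 0.03) without overlap, and in hyperoxia the difference was -0.03 (SE 0.06).

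Pdia6 (P5), an isomerase found in complexes with BiP, showed a smaller difference of the same sign. It stood at 202.4 ± 5.02 CPM after LPS and 168.8 ± 3.21 CPM in hyperoxia (SD, n = 3 each), a log2 difference of 0.26 (SE 0.03), and the difference was 0.34 (SE 0.07) with M2-Exo. Pdia3 (ERp57), the isomerase that works with calreticulin and calnexin, was 529.1 ± 31.0 CPM after LPS and 515.0 ± 22.5 CPM in hyperoxia (SD, n = 3 each), and the groups overlapped. Its log2 difference was 0.04 (SE 0.05), and -0.05 when libraries were scaled by total count alone. With M2-Exo it was 0.20 (SE 0.05), or 0.105 by total count alone, with no overlap in CPM. In FPKM the Pdia3 ranges did overlap, at 131.9 to 144.2 after LPS and 125.1 to 133.8 in hyperoxia. DESeq2 called Pdia3 with M2-Exo and limma did not. P4hb was 1193 ± 24.0 CPM after LPS and 1198 ± 23.0 CPM in hyperoxia (SD, n = 3 each), and its log2 difference was -0.01 (SE 0.03), or -0.10 by total count alone. With M2-Exo that difference was 0.09 (SE 0.05), or -0.0019 by total count alone, and in CPM the groups overlapped both times. In FPKM, which carries no TMM scaling, the LPS libraries of P4hb (303.0 to 312.2) lay below the Hyp libraries (321.6 to 335.5), and limma called it.

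Xbp1, the transcription factor whose mRNA is spliced by IRE1 in ER stress, was low throughout. It was at 25.2, 26.8 and 26.6 CPM in the LPS libraries and 21.04, 19.96 and 20.25 CPM in the Hyp libraries, a log2 difference of 0.36 (SE 0.06). With M2-Exo the difference was 0.38 (SE 0.09), and M2-Exo itself left -0.02 (SE 0.06) after LPS and -0.04 (SE 0.09) in hyperoxia. Counts per gene do not show the spliced form. In Hyp + M2-Exo replicate 3 Pdia4, Pdia6 and Xbp1 were all at the lowest of their 12 values, 140.5, 148.8 and 18.3 CPM.

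Over the 12 libraries Hsp90b1 and Pdia4 ran together in log2 CPM (Pearson r = 0.99), and Hsp90b1 and Calr ran opposite (r = -0.97). After the group means were subtracted these were 0.56 and -0.03, so most of both lay between the injuries. Pdia4 and Xbp1 had r = 0.85 within groups, and both were most spread in the Hyp + M2-Exo group. There Pdia4 was 164.5, 153.3 and 140.5 CPM and Xbp1 22.6, 19.0 and 18.3 CPM. Within the LPS group, replicate 2 was the lowest in Pdia4 and the highest in Xbp1. All are descriptions over 12 libraries that share 4 treatments.

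Between LPS and Hyp without M2-Exo, 6 of the 10 genes passed an adjusted p of 0.05 in edgeR, where 75.8% of all genes did. These were 5 higher after LPS (Hsp90b1, Pdia4, Pdia6, Txndc5 and Xbp1), where 37.8% of all genes were higher, and 1 lower (Calr), where 38% were lower. With M2-Exo 9 of 10 passed, where 73.7% of all genes did, 6 of them higher and 3 lower, where 36.5% and 37.1% of all genes were. The groups did not overlap in CPM for 3 of 10 genes with M2-Exo in hyperoxia (16% of all genes), 4 of 10 with M2-Exo after LPS (17.2%), 7 of 10 between LPS and Hyp (78.8%) and 8 of 10 between them with M2-Exo (77%). The median absolute log2 difference between LPS and Hyp was 0.31 over the 10 genes and 0.51 over all 13805 genes tested. The call of Hspa5 with M2-Exo was lost without any 1 of 5 of the 6 libraries compared. LPS and oxygen were not crossed, so the agent, the oxygen and any difference of culture or preparation between the arms cannot be told apart.

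The rest of the folding machinery was read through 134 other ER genes in 8 lists, of which 126 were tested. With M2-Exo 0 of the 126 passed the adjusted p in edgeR in either injury. At an unadjusted p under 0.05 there were 14 in hyperoxia and 16 after LPS, where 8.48% and 11.1% of all genes were, and limma called 0 in both. DESeq2 called 0 in hyperoxia and 1 after LPS, Sel1l, the adaptor of the Hrd1 ubiquitin ligase, which is named with its values seen. Sel1l was 145.2, 201.1 and 191.4 CPM in the LPS libraries and 140.8, 142.2 and 144.3 CPM with M2-Exo, a log2 difference of -0.33 (SE 0.11, edgeR adjusted p = 0.332). In the Hyp libraries it was 203.7, 186.7 and 139.7 CPM against 136.9, 139.0 and 139.5 CPM with M2-Exo, a log2 difference of -0.36 (SE 0.12, edgeR adjusted p = 0.544). In each injury 1 library without M2-Exo (LPS replicate 1 and Hyp replicate 3) lay within 1 CPM of the highest with it. For the difference of the M2-Exo effect 0 of 126 passed and 15 had an unadjusted p under 0.05 (9.78% of all genes), with 0 by DESeq2 and 0 by limma.

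Between LPS and Hyp, 95 of the 126 passed, 52 higher and 43 lower, and with M2-Exo 91 passed, 49 higher and 42 lower. These counts are near the shares of all genes, 75.8% (37.8% higher and 38% lower) and 73.7% (36.5% and 37.1%). The lists are described by their counts beside those shares, with no test of a list. Of 19 genes in the list for collagen hydroxylation and ER prolyl isomerases, 13 were higher after LPS and 1 lower (median log2 difference 0.42, against -0.01 over all genes). The lower gene was Mttp, at -1.09 (edgeR adjusted p = 9.82e-05), named with its value seen. Mttp encodes a lipid transfer protein of the ER, neither a collagen hydroxylase nor a prolyl isomerase. P4ha3, an alpha subunit that pairs with P4hb in collagen prolyl 4-hydroxylase, was at 7.76 ± 0.156 FPKM after LPS and 1.25 ± 0.0493 FPKM in hyperoxia (SD, n = 3 each, edgeR log2 difference 2.72, adjusted p = 2.79e-08). Serpinh1, the collagen chaperone, is named with its value seen and was higher by 0.95 (edgeR adjusted p = 2.11e-05). Ppib, a prolyl isomerase, was higher by 0.40 (edgeR adjusted p = 8.13e-06), and Fkbp9 by 0.67 (edgeR adjusted p = 9.23e-07). The summed fibroblast markers given above, of which 2 of 6 reached a mean of 1 FPKM, moved the same way.

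Of 15 tested sensors and factors of the unfolded protein response, 10 were lower after LPS and 4 higher (median -0.51). Of all genes 38% were lower and 37.8% higher. Ddit3 (CHOP), a transcription factor of prolonged stress, was at 4.92 ± 0.337 FPKM after LPS and 48.2 ± 0.718 FPKM in hyperoxia (SD, n = 3 each, edgeR log2 difference -3.20, adjusted p = 1.63e-08). Trib3, a target of CHOP, stood at -2.77 on the log2 scale (edgeR adjusted p = 2.74e-08). The sensors Atf6 and Ern1 (IRE1) were lower too, at -1.22 (edgeR adjusted p = 2.79e-08) and -1.08 (edgeR adjusted p = 1.03e-07), and Atf4 at -0.56 (edgeR adjusted p = 3.17e-06). Creb3l2, a relative of Atf6, was higher by 1.69 (edgeR adjusted p = 2.77e-08), as was the protease gene Mbtps1, whose product cleaves ATF6, by 0.71 (edgeR adjusted p = 9.46e-07). Eif2ak3 (PERK) stood at 0.0034 (edgeR adjusted p = 0.944), and it is named with its value seen. Of the members, Hsp90b1, Pdia4, Pdia6, Txndc5 and Xbp1 were higher and Calr was lower in this comparison. Hspa5, Canx, Pdia3 and P4hb were not called in edgeR. A relation of the members to these factors was not tested.

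**Figure D4:**
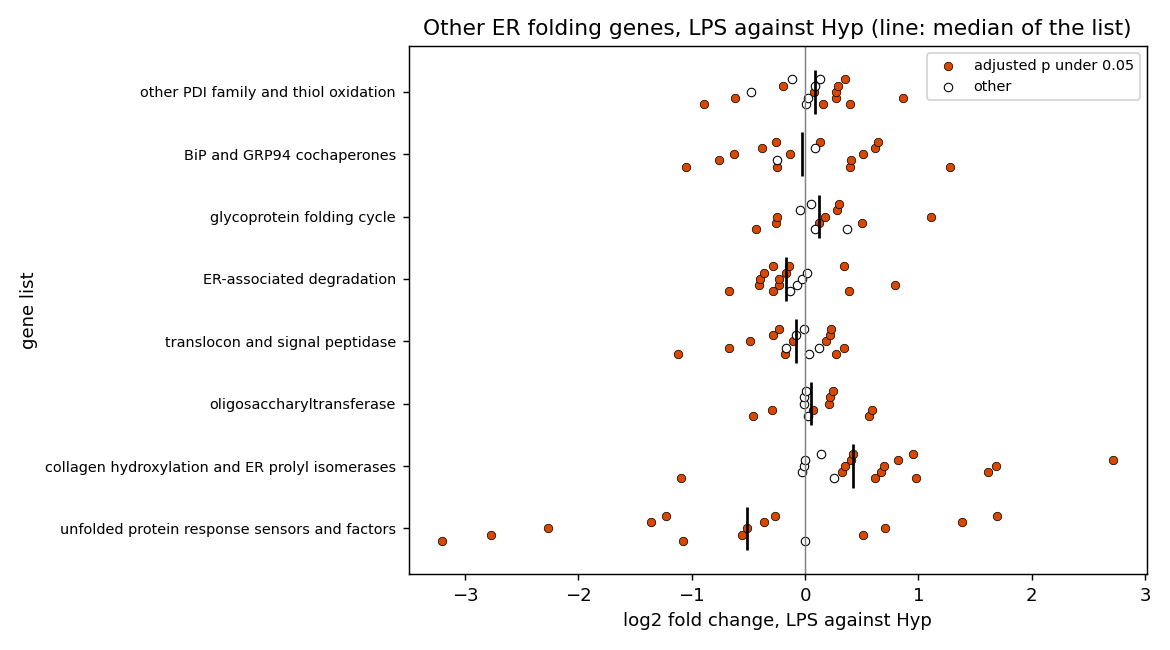
Log2 fold change of LPS against Hyp (x axis) for the 126 other ER folding genes tested, 1 row a list, with filled points past an adjusted p of 0.05 in edgeR, open points not past it and a line at the median of each list. The list of collagen hydroxylation and ER prolyl isomerases lies mostly to the right (median 0.42) and the unfolded protein response list mostly to the left (median -0.51).

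Of 16 cochaperones of BiP and GRP94, 7 were higher and 7 lower, where 37.8% and 38% of all genes were. Creld1 was higher by 1.28 (edgeR adjusted p = 2.64e-07) and Cnpy2 by 0.40 (edgeR adjusted p = 0.000267), while Sdf2l1 stood at -0.13 (edgeR adjusted p = 0.0263). Named with their values seen, the BiP cochaperones Dnajb9 and Dnajb11 stood at -1.05 (edgeR adjusted p = 2.49e-06) and -0.76 (edgeR adjusted p = 8.15e-06). Of the 17 other isomerases and oxidation genes tested, 8 were higher and 3 lower, beside the same shares of all genes. Prdx4, the ER peroxiredoxin, was higher by 0.86 (edgeR adjusted p = 6.28e-07), Dnajc10 (ERdj5) by 0.08 (edgeR adjusted p = 0.0306), and Tmx1 stood at -0.19 (edgeR adjusted p = 0.000719).

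In the glycoprotein folding cycle, which feeds calreticulin and calnexin, 6 of 13 genes were higher and 3 lower. Of all genes 37.8% were higher and 38% lower. Mogs, the glucosidase that removes the outermost glucose, was higher by 1.11 (edgeR adjusted p = 3.83e-07) and Ganab, the catalytic subunit of the next glucosidase, by 0.12 (edgeR adjusted p = 0.0169). Prkcsh, the partner of Ganab, stood at -0.43 (edgeR adjusted p = 5.88e-05). In ER-associated degradation 10 of 17 were lower and 3 higher, where 38% and 37.8% of all genes were. Vcp, the ATPase that draws proteins out of the ER membrane, was among the higher genes, at 0.35 (edgeR adjusted p = 2.4e-05).

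Of 17 genes of the translocon and signal peptidase 5 were higher and 7 lower, near the shares of all genes. Sec61a2, a channel subunit, was at -1.13 (edgeR adjusted p = 3.37e-07) and Ssr3 at -0.17 (edgeR adjusted p = 0.00372), while Spcs3 stood at -0.08 (edgeR adjusted p = 0.133). Of 12 oligosaccharyltransferase genes 6 were higher and 2 lower, where 37.8% and 38% of all genes were. Tusc3 was higher by 0.59 (edgeR adjusted p = 1.12e-06) and Ddost by 0.07 (edgeR adjusted p = 0.0391).

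With M2-Exo in both arms, 14 of the 19 genes of the collagen and prolyl isomerase list, which holds Mttp, were higher after LPS and 1 lower (median 0.63). Of the 15 stress-response genes 9 were lower and 4 higher (median -0.28). Of all genes 36.5% were higher and 37.1% lower. Ddit3 stood at -3.46 (edgeR adjusted p = 3.97e-08), Chac1 at -2.01 (edgeR adjusted p = 4e-07) and P3h2, a prolyl 3-hydroxylase, at 1.00 (edgeR adjusted p = 8.11e-07). The M2-Exo groups are different libraries from those without M2-Exo, but they share the confounding of agent with oxygen.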

How the data were processed

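Poly(A)-selected RNA of MLE-12 cells was sequenced in 12 libraries. Per the submitters' processing notes, reads were aligned with HISAT2 2.0.4 to GRCm38 and genes were quantified with StringTie 1.3.0. The authors deposited whole-number counts per gene and FPKM. Hsp90b1 overlaps 2 other genes, 1 of them on its own strand, so it may hold reads of that gene even if counting used strand. Pdia3 and Pdia6 each overlap 1 gene on the other strand. Whether counting used strand is not given in the sources used here, so reads of the genes on the other strand may be held too. All 24 value columns were mapped to samples by name (0 unused).

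Counts were tested with edgeR 4.0.16 (quasi-likelihood, TMM, filterByExpr, R 4.3.3) on the 6 libraries of each comparison, and on all 12 for the difference of the M2-Exo effect. P-values were adjusted by Benjamini-Hochberg over all genes tested. The SE is the size of the log2 fold change divided by the root of F. Levels are TMM-scaled CPM within a gene and deposited FPKM between genes. The fit was tested on simulated data.

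The 10 genes and 8 lists were chosen with earlier results of these data known. Named other genes are, in each comparison, up to 10 with the smallest adjusted p among those past the threshold with a mean of at least 5 CPM, and the 2 with the highest FPKM of each list. A gene that this rule names is not reported here. Genes most like Txndc5 are the 5 of highest Pearson r with a mean of at least 10 CPM. Of the listed symbols, 7 were not matched. Protein sequences were not analysed here. Alternatives were RLE or no scaling, no or a stricter filter, DESeq2 1.42.0, limma 3.58.1 on log2(FPKM + 1) or log2(FPKM + 0.1), a replicate block, all 12 libraries in 1 fit, and each library left out.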

Additional observations from a re-analysis of the deposited data

How the results depend on the processing

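The counts of called genes between LPS and hyperoxia kept within 1.5 times of the reported values under all alternatives. Members called ranged from 6 to 8 without M2-Exo (reported 6) and from 7 to 10 with it (reported 9), and other ER genes called from 86 to 95 (reported 95) and from 82 to 95 (reported 91). In the M2-Exo comparisons the counts are so small that 1 gene moves them. Txndc5 in hyperoxia was called in every alternative but the fit of all 12 libraries, where 0 members were called (the cause was not tested). Txndc5 was singled out with its values known, so its calls here describe the processing and are no test of the gene. After LPS, leaving out 1 library gave 0 to 1 members called, with Txndc5 called at 1.05 on the log2 scale without LPS replicate 2. Of the other ER genes, leaving out 1 library gave 0 to 1 in hyperoxia (Sel1l without Hyp replicate 3) and 0 to 1 after LPS (Sel1l without LPS replicate 1, Srprb without LPS + M2-Exo replicate 1), and DESeq2 called 1 after LPS. Relative to its family, Txndc5 with M2-Exo after LPS ranged from 0.51 to 0.98 with 1 library left out (reported 0.67), and between LPS and Hyp from 0.73 to 1.21 (reported 1.05). No direction of a called member reversed under these alternatives. Scaling by total count alone moved the median of all genes between LPS and Hyp to -0.10 from -0.01.

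Over all genes, the counts called in hyperoxia and after LPS (14 and 25 in edgeR) were 37 and 130 by DESeq2, 2 and 12 with all 12 libraries, and 8 and 6 with the replicate block. The replicate block left the members called at 1 in hyperoxia and 0 after LPS. The deviations of same-numbered libraries from their group means correlated between -0.02 and 0.05, so the numbers were not taken to pair the samples. For the difference of the M2-Exo effect (5 in edgeR) the count over all genes was 70 by DESeq2, 3 with the replicate block, 13 without a filter and up to 34 with 1 library left out. With 3 libraries a group, the differences of members other than Txndc5 with M2-Exo, at most 0.26 on the log2 scale, were not called in edgeR.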
